A study of Mus musculus with 10 samples.

Results

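The set comprised the 100 genes whose expression lay above every adenocarcinoma in every sarcomatoid tumor of the mouse series, mammary or lung, by the widest margins. They were selected on the authors' normalized log2 ratios. For each probe the gap was the lowest of the 5 sarcomatoid values minus the highest of the 5 adenocarcinoma values. Of 40196 probes, 348 had a gap above 0, and 280 of these were also flagged well above background in the red channel on all 5 sarcomatoid arrays. The probe with the largest gap was kept for each gene, and the 100 genes with the largest gaps were taken, of 27307 gene names on the array. Because the sarcomatoid and adenocarcinoma values chose the genes, their difference between the groups is given as a description with no test.

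Each array held the RNA of 1 tumor. The sarcomatoid group held 3 mammary tumors, numbered 323, 307 and 594, and 2 lung tumors numbered 323 and 307, which grew in mice after tail vein injection of cell lines derived from the mammary tumors of those numbers, so the 5 arrays cover 3 tumor origins. Following the study's methods, 1 of the paired origins was a Pik3ca H1047R, Trp53 R270H and MMTV-Cre primary tumor, and the other was a Pik3ca H1047R and MMTV-Cre primary tumor that had acquired Trp53 R245H. Tumor 594, which has no lung partner, was by that account the Trp53 R270H and MMTV-Cre tumor without the Pik3ca allele. The labels do not say which of 323 and 307 carried which genotype. They name tumors 323 and 307 and both lung tumors sarcomatoid adenocarcinoma, and tumor 594 sarcomatoid carcinoma. The study's methods place all 5 in 1 group of metastatic sarcomatoid carcinoma. The adenocarcinomas, numbered 105, 131, 470, 17 and 85, were primary tumors of mice with Pik3ca H1047R, Trp53 R270H and MMTV-Cre. The compound mutants were on the C57BL/6 background, and the MMTV promoter, active mainly in mammary epithelium, drove Cre in all of them. Ages were not given in the sources used here. Pieces of tumor were measured whole, so that fewer cells of a type and less RNA per cell cannot be told apart.

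Sarcomatoid, or spindle cell, carcinoma is an epithelial cancer whose cells have taken on a mesenchymal shape, while adenocarcinoma keeps a glandular one. Tumors of both kinds also hold macrophages, other leukocytes, fibroblasts and vessels. A gene that lies strictly higher in all sarcomatoid tumors may therefore be expressed in the cancer cells or in the cells around them.

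All values below are log2 ratios of the tumor to a common reference, renormalized from the scanner intensities unless the deposited table is named. The red channel was read as the tumor and the green as the reference. This is likely rather than certain, because the labels give Cy3, the green dye, for the tumor. Among arrays read with 1 version of the image software, the green signals of any 2 arrays correlated at 0.994 to 0.998 across probes and the red signals at 0.824 to 0.923, and each deposited column correlated with its own array's red over green ratio at 0.81 to 0.95. If the reading were wrong, every sign would turn. The paper reports Mrc1 and Itgam as higher, and Krt18, Epcam and Dsp as lower, in the sarcomatoid group. With red as the tumor, Mrc1 and Itgam were higher by 1.61 and 1.41, and the median difference of 22 epithelial genes was -1.76. The array images were read with 3 versions of the feature extraction software, called protocol versions here, of which version 1 held tumor 323, version 2 held tumors 307, 594, 105 and 470, and version 3 held both lung tumors and tumors 131, 17 and 85. Adenocarcinoma 470 went against its label. Over probes outside the set it correlated with the mean of the sarcomatoid tumors at 0.86 and with the mean of the other adenocarcinomas at 0.61, while each of the other 4 adenocarcinomas correlated more with the mean of the remaining adenocarcinomas (0.71 to 0.79) than with that of the sarcomatoid tumors (0.55 to 0.72).

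The 100 genes had a median difference of 0.97 between the group means, against -0.01 over all probes. In the renormalized ratios, 86 of the 100 still had no overlap between the groups, beside 0.661% of all 41174 probes, a count the choice of members largely sets. The median gap was 0.16 and the gaps ran from -0.31 to 0.86. With each array centred on its median in place of loess, 63 of the 100 had no overlap, with no share of all probes given for that setting. Adenocarcinoma 470 was the highest adenocarcinoma for 63 of the 100 genes and tumor 105 for 20, so these 2 tumors set most gaps from below. From above, the mammary tumor 307 was the lowest sarcomatoid tumor for 42 genes and its lung partner for 30. Without adenocarcinoma 470 the median difference was 1.07 and 89 members had no overlap, where 2.98% of all probes then had none.

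By tumor, the median over the members was 0.59 in 323, 0.57 in its lung partner, 0.34 in 307, 0.48 in its lung partner and 0.66 in 594. The adenocarcinoma medians were -0.29 in 105, -0.61 in 131, -0.05 in 470, -0.42 in 17 and -0.46 in 85. The 2 sets of medians did not overlap, and adenocarcinoma 470 came nearest to the sarcomatoid tumors.

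The given markers of the set are Emx2, Medag and Mrpl33. Emx2 encodes a homeobox transcription factor of the developing forebrain and urogenital tract, and had the fourth largest gap. Its log2 ratio was 0.21 in 323, 0.32 in the 323 lung tumor, -0.04 in 307, -0.10 in the 307 lung tumor and 0.25 in 594. The adenocarcinomas had -0.92, -1.46, -0.85, -1.02 and -1.08 in 105, 131, 470, 17 and 85. All sarcomatoid tumors lay above all adenocarcinomas, with a mean difference of 1.20, a ratio of means of 2.29. The Emx2 probe was well above background on 2 of the 5 adenocarcinoma arrays, and its size moved with the background correction, with a difference of 1.59 at a normexp offset of 16, 1.52 without correction and 2.32 in the deposited table. A second Emx2 probe differed by 0.42, also without overlap.

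Medag, a gene named for its role in adipocyte differentiation, had ratios of 0.68, 0.82, 0.99, 1.08 and -0.26 in the sarcomatoid tumors 323, 323 lung, 307, 307 lung and 594. In adenocarcinomas 105, 131, 470, 17 and 85 it had -1.43, -2.65, -0.72, -2.27 and -2.14. Tumor 594 was the low sarcomatoid tumor and 470 the high adenocarcinoma, with a gap of 0.46 between them. The mean difference was 2.50, a ratio of 5.66, and the other Medag probe gave 2.91 without overlap.

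Mrpl33, a protein of the large mitochondrial ribosomal subunit, had a smaller and tighter difference. It was between 0.08 and 0.34 in the sarcomatoid tumors and between -0.88 and -0.34 in the adenocarcinomas, a mean difference of 0.84. A much dimmer second Mrpl33 probe, above background on 5 of the 10 arrays, differed by 0.21 with overlap. Of the 78 mitochondrial ribosomal protein genes on the array, 41 had a difference above 0 and the median was 0.03. Mrpl22, Mrps16 and Mrps28 were the other genes of that list without overlap, at 0.55, 0.55 and 0.42. Aurkaip1, which also acts in the mitochondrial ribosome, was a member by the rule at 0.81.

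Among the 20 largest gaps, Radx, which encodes a single-stranded DNA binding protein at replication forks, came first. It had 0.85 in 323, 1.69 in its lung partner, 0.08 in 307, 0.14 in its lung partner and 1.05 in 594, and -0.89, -1.32, -0.90, -0.78 and -0.92 in 105, 131, 470, 17 and 85. Both 307 tumors were low among the sarcomatoid tumors, and the gap of 0.86 was the widest in the renormalized ratios as well as in the deposited table. The deposited difference was 3.16 and the renormalized one 1.73, and the probe was well above background on 3 of the 5 adenocarcinoma arrays. Of the other leading genes not taken up below, Gng10, a gamma subunit of G proteins, differed by 1.29, Ptchd4, a patched-domain protein, by 1.17 and the RIKEN transcripts B230217C12Rik and 5830432E09Rik by 0.66 and 0.37. For dim probes the size moved with the background correction. At an offset of 16 B230217C12Rik and 5830432E09Rik differed by 0.96 and 0.62, and in the deposited table by 1.49 and 1.38, each with 2 of 5 adenocarcinoma arrays above background. The deposited differences were also over 1.5 times as large for Rgs18 (3.16), Klhl13 (2.90), Abca8b (1.77), Ptchd4 (1.82), Pknox2 (1.57) and Ccr2 (2.68).

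**Figure D1:**
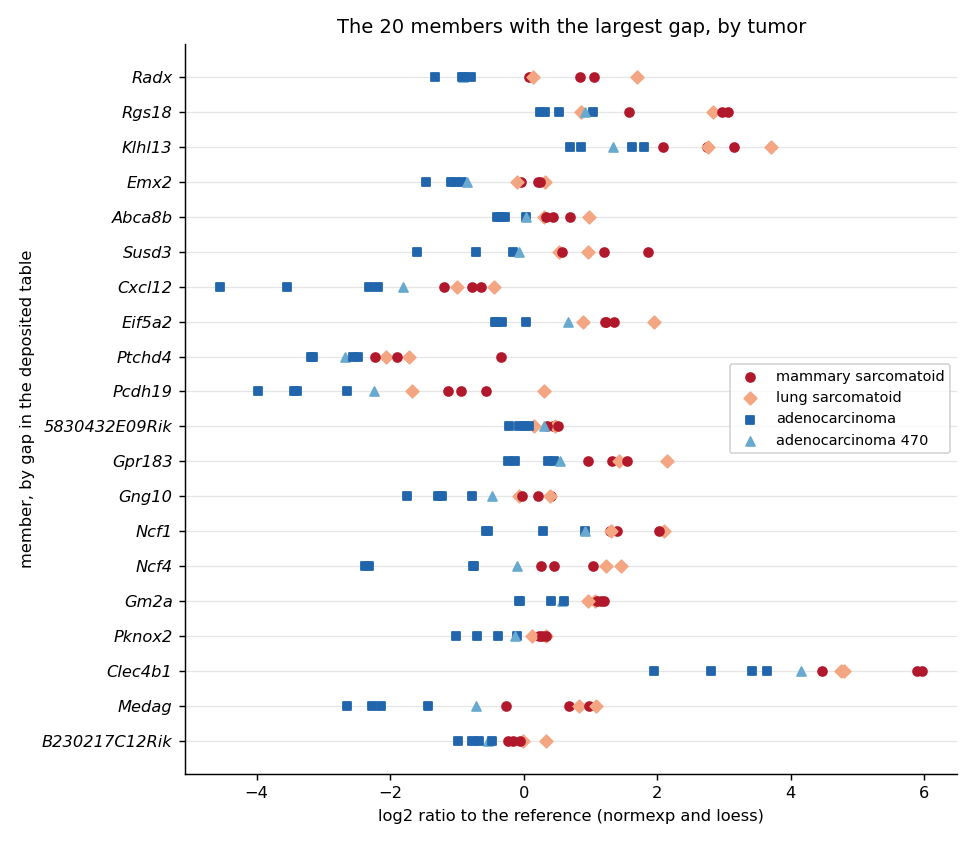
Log2 ratio to the reference (horizontal axis) in each of the 10 tumors for the 20 members with the largest gap in the deposited table (vertical axis, widest gap on top). Circles are mammary and diamonds lung sarcomatoid tumors, squares are adenocarcinomas and the triangle is adenocarcinoma 470. The widest separation is that of Radx, with a gap of 0.86, while Rgs18 and 5830432E09Rik overlap in these renormalized ratios.

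Surface and secreted proteins had the largest median difference of the role groups. The grouping by role was made after the values were seen. The 15 such members had a median difference of 1.67, from 0.74 for Abca8b, a lipid transporter, to 2.61 for Glipr1, and 14 had no overlap. The choice of members largely sets such counts in each role group. Of all 100 members 86 had no overlap, beside 0.661% of all probes. Jam3, a junctional adhesion molecule, was nearly constant in the sarcomatoid tumors at 1.62 to 1.94. In the adenocarcinomas it was -0.23 in 105, -1.56 in 131, 1.52 in 470, -1.62 in 17 and -1.25 in 85. Adenocarcinoma 470 thus lay 0.10 below the lowest sarcomatoid tumor and well above the next adenocarcinoma, 105.

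Cxcl12, the chemokine that binds Cxcr4, lay below the reference in every tumor. It was -0.77, -1.0, -1.19, -0.45 and -0.64 in 323, 323 lung, 307, 307 lung and 594, and -2.31, -2.18, -1.81, -3.55 and -4.54 in 105, 131, 470, 17 and 85. The mean difference was 2.06, and the SD was 0.29 in the sarcomatoid tumors and 1.14 in the adenocarcinomas. Pcdh19, a protocadherin, was -0.56, 0.31, -1.13, -1.67 and -0.94 in the sarcomatoid tumors in the same order, and -3.98 to -2.24 in the adenocarcinomas. Its difference of 2.34 was the largest of any X-linked member. Emp3, an epithelial membrane protein of the claudin superfamily, differed by 2.14 and Fam171b by 1.78, and Susd3, a sushi domain protein, by 1.67 with 1 value left out as an outlier spot.

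Csmd3, a large membrane protein with complement-like domains, differed between the tumor origins. It was 0.09 in 323 and -0.10 in the 323 lung tumor, but 1.20 in 307, 2.50 in the 307 lung tumor and 1.58 in 594. The adenocarcinomas lay between -0.42 and -0.25. Its SD of 1.08 over the sarcomatoid tumors was the highest of the set, followed by 1.03 for Ccr2 and 0.99 for Rgs18. Calu, a calcium-binding protein of the secretory pathway, had the lowest at 0.07 by its member probe, with ratios of 0.80 to 1.0. It was followed by NAP124059-1, a probe with no gene name, and Pknox2, each at 0.09. A brighter Calu probe, above background on all arrays, differed by 1.02 between the groups but overlapped, with a gap of -0.79.

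Genes of leukocytes formed the largest group with a named role, with 22 members and a median difference of 1.40. A larger number, 41 members, was placed in no named role, with a median difference of 0.71. The share of leukocyte genes among all genes that could have passed the rule was not counted. Ncf1 and Ncf4 encode cytosolic subunits of the phagocyte NADPH oxidase. Ncf4 was 0.45, 1.24, 0.26, 1.47 and 1.04 in 323, 323 lung, 307, 307 lung and 594. In 105, 131, 470, 17 and 85 it was -0.75, -2.37, -0.10, -0.76 and -2.32, a difference of 2.15. Ncf1 was 1.29 to 2.10 in the sarcomatoid and -0.56 to 0.92 in the adenocarcinoma tumors, with 105 and 470 both at 0.92. For both genes 105 and 470 were the highest adenocarcinomas, and 131 and 85 at the bottom.

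Receptors and chemokines of the group included Gpr183, an oxysterol receptor that guides lymphocytes and dendritic cells, Cx3cr1 and Ccr2, receptors of monocytes, and Ccl12, a monocyte chemoattractant. Gpr183 differed by 1.28 and Cx3cr1 by 1.39, both without overlap. Ccl12 was far above the reference in all sarcomatoid tumors, at 4.12 to 6.22, and 1.33 to 4.21 in the adenocarcinomas, so that 470 overlapped the 307 lung tumor. Ccr2 was 2.02, 2.17, 2.79, 1.16 and 3.94 in 323, 323 lung, 307, 307 lung and 594, and overlapped the adenocarcinomas at 0.24 to 1.43. A brighter Ccr2 probe, above background on all arrays, differed by 2.48 without overlap. The C-type lectins Clec4b1 and Clec4a2 differed by 1.98 and 1.40, and Rgs18, a regulator of G protein signaling in platelets and myeloid cells, by 1.65 with overlap. Intracellular members were Coro1a, an actin regulator, at 1.23, Lat2, an adaptor, at 1.68, Irf5, an interferon regulatory factor, at 1.12, and Ptpn6, the phosphatase Shp1, at 0.86. Of the 22, 17 had no overlap in the renormalized ratios, as had 86 of all 100 members, which were chosen for it.

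General myeloid markers also differed between the groups. Over the 23 genes of a myeloid list on the array, of which 22 were above background on all 10 arrays, the median difference was 1.38. The mean ratio of that list was 2.18 to 2.96 in the sarcomatoid tumors and 0.48 to 2.49 in the adenocarcinomas, where 470 was the highest and the next was at 1.71. For the leukocyte members the highest adenocarcinoma median was that of 105, at 0.75, with 470 at 0.66. C1qa was the gene of the list without overlap when its brightest probe was used. Csf1r, the receptor of macrophage colony stimulating factor, was on both lists. Its member probe differed by 0.43 and did not overlap, whereas its brightest probe differed by 1.64 and overlapped by 0.04. The list of T and B lymphocyte markers had means of -1.23 to -0.04 and -1.19 to 0.27 in the 2 groups, with a median difference of 0.00. The part of these cells in the members' differences was not tested.

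Lysosomal and endosomal members were 9 in number, with a median difference of 1.0. All were without overlap, as were 86 of all 100 members, which were chosen for it. Gm2a, an activator protein of ganglioside breakdown, was 1.21, 1.07, 1.1, 0.97 and 1.16 in 323, 323 lung, 307, 307 lung and 594. In 105, 131, 470, 17 and 85 it was 0.42, -0.05, 0.57, 0.61 and -0.07. All sarcomatoid tumors lay above all adenocarcinomas, with a mean difference of 0.81. The beta-mannosidase Manba differed by 0.90 and Naaa, an acid amidase of the lysosome, by 1.65. Cst3, the secreted cathepsin inhibitor cystatin C, differed by 1.57, and Gabarap, an autophagosome protein, by 0.73.

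Members that act on RNA and translation had a median difference of 0.86 over 8 genes. Eif5a2, an isoform of a hypusine-containing translation factor, was 1.23, 1.96, 1.22, 0.89 and 1.35 in 323, 323 lung, 307, 307 lung and 594, and -0.32, -0.42, 0.66, 0.04 and -0.40 in 105, 131, 470, 17 and 85. Again 470 lay closest to the sarcomatoid tumors. Larp7, a protein of the 7SK RNA complex, differed by 1.01 and Plrg1, a splicing factor, by 0.46.

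Transcription and developmental regulators had smaller differences, with a median of 0.58 over 5 genes. Pknox2, a homeodomain partner of the Meis family, was 0.13 to 0.34 in the sarcomatoid tumors and -1.01 to -0.10 in the adenocarcinomas. This rests on 1 probe, which was above background on 3 of the 5 adenocarcinoma arrays. The other Pknox2 probes differed by 0.07 and 0.04 with overlap, and the second of these was brighter and above background on all arrays. Emx2 was the member among 46 homeobox genes outside the Hox clusters, whose median difference was 0.06. None of the 38 Hox genes had values without overlap in either direction, where 0.661% of all probes lay wholly higher in the sarcomatoid tumors. Sesn1, a stress sensor induced by p53, was the member among 20 p53 target genes, at 0.63 by its member probe. By its brightest probe, which the list used, it differed by 1.17, against a list median of 0.09.

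Lists that describe the 2 tumor types held no member. The epithelial list had 22 genes on the array and a median difference of -1.76, the mesenchymal list 26 genes and 1.03, and the list of epithelial to mesenchymal transition factors 9 genes and 0.89. Not 1 of these genes was without overlap. Only 0.661% of all probes lay wholly higher in the sarcomatoid tumors, so nothing is read from this count. The mean epithelial ratio was -1.06 to 1.17 in the sarcomatoid tumors and -0.75 to 2.97 in the adenocarcinomas, and the mean mesenchymal ratio was -0.73 to 1.66 and -1.99 to 1.28. The other lists without a member were those for basal cells (median difference -1.09), contractile cells (-0.11), endothelium (-0.05), adipocytes (-0.24), skeletal muscle (-0.59), lung epithelium (0.02), milk proteins (-1.40), proliferation (0.05), matrix proteases (0.47), sulfatases (0.27) and PDGF, FGF, TGF-beta and IGF signaling (0.08). The mean of the lung epithelium markers was -0.16 in 1 lung tumor and 0.00 in the other, within -0.16 to 0.41 over the sarcomatoid tumors. Adenocarcinoma 470 had the highest mesenchymal mean of the adenocarcinomas, with the next at -0.04.

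**Figure D2:**
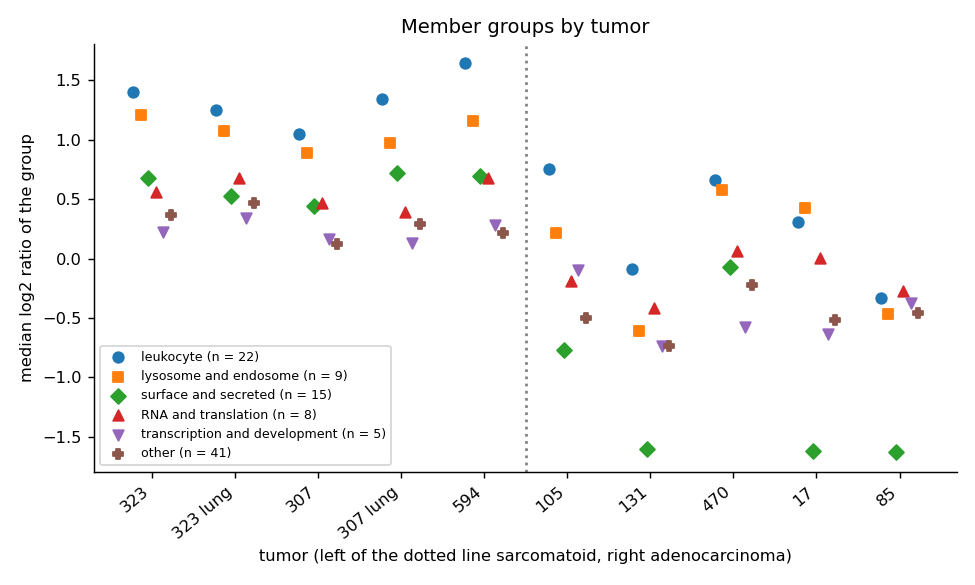
Median log2 ratio (vertical axis) of each role group of members in each tumor (horizontal axis, sarcomatoid tumors left of the dotted line). Leukocyte members lie between 1.05 and 1.64 in the sarcomatoid and between -0.33 and 0.75 in the adenocarcinoma tumors. Surface and secreted members are at -0.07 in adenocarcinoma 470 and at or below -0.77 in the other 4.

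The X chromosome carried 14 of the 99 members on a numbered or X chromosome, or 14.1%, against 3.41% of the 16347 genes that could have passed the rule because a probe was above background on all sarcomatoid arrays. Chromosome 3 carried 11, or 11.1% against 5.01%. Among all genes with a gap in either direction that were above background on the sarcomatoid arrays, 26 on the X chromosome lay above and 2 below the adenocarcinomas in every sarcomatoid tumor. For chromosome 3 these counts were 33 and 1 and for chromosome 14 they were 16 and 0. Over all chromosomes 67.3% of such genes lay above, and the filter on the sarcomatoid arrays alone favours that side. The median difference of all probes above background on the sarcomatoid arrays was 0.17 on chromosome 3 and 0.15 on the X chromosome, the highest of any chromosome.

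Within single tumors, the median ratio of the X probes minus that of probes on the other autosomes without chromosome 3 was 0.21, 0.31, 0.04, 0.14 and 0.12 in 323, 323 lung, 307, 307 lung and 594. It was -0.01, -0.09, 0.07, 0.01 and -0.15 in 105, 131, 470, 17 and 85, so that 470 exceeded 307. For chromosome 3 the same offset was 0.19 to 0.54 in the sarcomatoid and -0.08 to 0.16 in the adenocarcinoma tumors, with the 323 lung tumor highest. DNA copy number was not measured.

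X-linked members had varied roles. Hprt, the purine salvage enzyme often taken as a reference gene, was 0.90, 1.04, 0.60, 0.76 and 0.99 in 323, 323 lung, 307, 307 lung and 594. In 105, 131, 470, 17 and 85 it was -0.18, -0.58, 0.34, -0.10 and -0.26, a difference of 1.01 and a ratio of means of 2.02. Cul4b and Klhl13, a scaffold and a substrate adaptor of ubiquitin ligases, differed by 0.98 and 1.63, Clcn5, an endosomal chloride transporter, by 1.0, and Dock11 and Arhgef6, activators of small GTPases, by 1.34 and 0.88. Uxt, a prefoldin-like cofactor, was the least changed at 0.52.

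**Figure D3:**
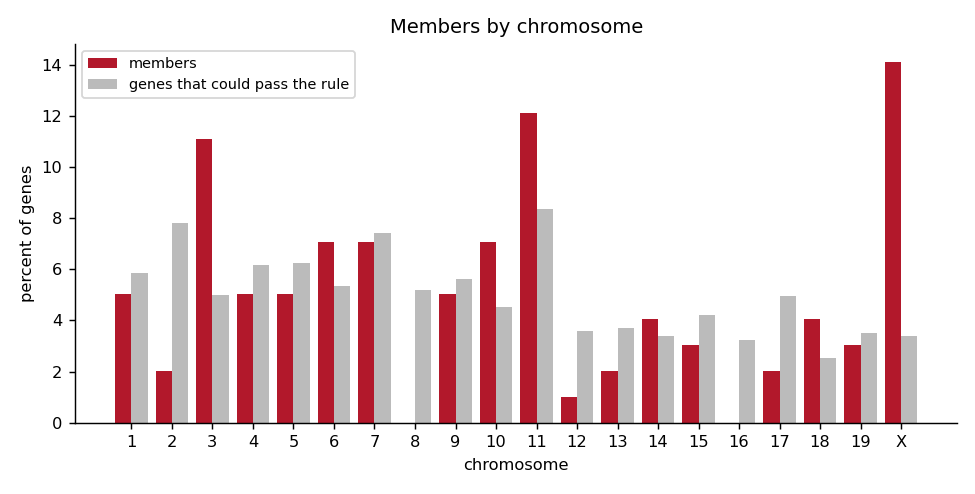
Share of the members (dark bars) and of the genes that could have passed the rule (grey bars) on each chromosome, in percent of the genes with a numbered or X chromosome. The X chromosome holds 14.1% of the members against 3.41%, and chromosome 3 holds 11.1% against 5.01%.

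Some members were neighbours. In the mm7 coordinates of the scanner files, 8 pairs had probes within 1 Mb of each other. The probe of 9930012K11Rik lies at chr14:64799365-64799424 and that of Pdlim2, a PDZ and LIM domain protein, at chr14:64818875-64818934, 19.5 kb away, with differences of 0.87 and 0.71. Hprt and Plac1, a placental surface protein, lay 48.9 kb apart on the X chromosome. The lectins Clec4b1 and Clec4a2 were 69.0 kb apart on chromosome 6, where Calu and Irf5 lay 175 kb apart, and Smyd4 and Pitpna were 223 kb apart on chromosome 11. The array names only the gene of each probe, so exon or UTR positions are not given here.

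Promoter sequence was read for the members with an entry in RefSeq's table, as the 250 bases before the gene start in build GRCm38.p6. An entry was matched by symbol for 70 of the 100 members. The GC box letters GGGCGG, on either strand, were in 58.6% of the members, in 35.4% of all 27025 genes of the table and in 61.0% of the 10784 genes that could have passed the rule. The set was thus close to other detected genes in this respect, and its median GC content was 57.4% against 59.2%. The E-box letters CACCTG were in 18.6% of the members and 18.3% of the detectable genes. The letters GAGGAAGT, a core bound by the myeloid factor PU.1, were in 1 member, Slamf9, and in 2.94% of the detectable genes. The 6 windows below are those of leading members with GC boxes (Radx, Emx2, Cxcl12, Hprt), of Medag, which has none, and of Slamf9. Capitals mark the GC box on either strand or, for Slamf9, the letters GAGGAAGT. They lie at chrX:139480117-139480366, plus strand for Radx, chr19:59458440-59458689, plus strand for Emx2, chr6:117168285-117168534, plus strand for Cxcl12, chrX:52987828-52988077, plus strand for Hprt, chr5:149411499-149411748, plus strand for Medag and chr1:172475110-172475359, plus strand for Slamf9.
Radx: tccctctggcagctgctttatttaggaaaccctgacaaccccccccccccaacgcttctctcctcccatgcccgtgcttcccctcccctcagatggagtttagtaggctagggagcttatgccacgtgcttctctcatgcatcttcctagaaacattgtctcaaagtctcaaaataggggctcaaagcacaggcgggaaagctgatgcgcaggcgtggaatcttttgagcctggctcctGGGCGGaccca
Emx2: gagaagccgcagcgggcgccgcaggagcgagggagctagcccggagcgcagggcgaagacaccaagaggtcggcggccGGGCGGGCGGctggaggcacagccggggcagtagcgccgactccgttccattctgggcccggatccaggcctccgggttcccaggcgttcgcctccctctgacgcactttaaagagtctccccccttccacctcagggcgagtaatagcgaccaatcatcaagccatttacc
Cxcl12: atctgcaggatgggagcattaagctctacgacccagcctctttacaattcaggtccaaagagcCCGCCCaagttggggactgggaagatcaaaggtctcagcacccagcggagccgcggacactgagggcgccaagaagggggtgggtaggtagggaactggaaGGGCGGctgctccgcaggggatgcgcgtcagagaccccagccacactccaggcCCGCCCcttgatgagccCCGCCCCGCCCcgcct
Hprt: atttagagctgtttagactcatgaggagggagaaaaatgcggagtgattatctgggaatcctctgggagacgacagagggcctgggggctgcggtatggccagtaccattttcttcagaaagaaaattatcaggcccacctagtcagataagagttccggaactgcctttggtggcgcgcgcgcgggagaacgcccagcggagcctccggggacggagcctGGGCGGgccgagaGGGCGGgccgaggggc
Medag: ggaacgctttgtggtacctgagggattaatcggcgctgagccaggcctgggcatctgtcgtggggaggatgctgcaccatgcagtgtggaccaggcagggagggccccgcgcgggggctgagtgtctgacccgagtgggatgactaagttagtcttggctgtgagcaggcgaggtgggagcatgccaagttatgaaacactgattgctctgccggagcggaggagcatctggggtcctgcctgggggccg
Slamf9: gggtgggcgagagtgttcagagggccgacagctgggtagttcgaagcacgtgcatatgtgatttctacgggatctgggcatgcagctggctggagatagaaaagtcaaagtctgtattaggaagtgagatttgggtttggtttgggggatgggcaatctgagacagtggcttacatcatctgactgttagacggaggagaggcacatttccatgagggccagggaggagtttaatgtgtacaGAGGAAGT

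A match of these letters is a description of the sequence and not evidence of binding. Overlapping GC boxes were counted separately, which gives 2 in Emx2, 5 in Cxcl12, 2 in Hprt and 1 in Radx.

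Other probes for the same genes gave a further reading, from the same arrays and contrast. For 60 members with another named probe, 83 further probes had a median difference of 0.75, and 79 were above 0, where 48.7% of all probes were. Without overlap were 23 of the 83, beside 0.661% of all probes, a count that the choice of members may in part set. The exceptions in sign were single probes of Klhl13, Piwil4, Manba and Ptpn6, at -0.07, -0.05, -0.04 and -0.02. For Klhl13, which had the third largest gap, all 3 other probes differed by 0.07 or less in size, and the values of 2.08 to 3.71 against 0.69 to 1.80 rest on 1 probe. Of the 3, 1 was above background on all 5 sarcomatoid arrays. The member probe was above background in every tumor, while the reference was not above background on any array, as for 5 members in all, Rgs18, Ccr2, Cnr2 and AK043581 being the others. Brighter second probes of Cxcl12 and Gm2a differed by 2.43 and 0.97 but overlapped between the groups, with gaps of -0.06 and -0.29. Dim second probes of Abca8b and Jam3 differed by 0.02 and 0.11 with overlap.

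The threshold of the set fell among near equal values. The last 3 members, Ptpn6, AK041801 and Hps3, had deposited gaps of 0.18, 0.18 and 0.17. The first 3 genes outside, Haus7, Slc2a6 and Nrp1, had 0.17, 0.17 and 0.17.

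Within scan protocol versions the members kept their direction. All 100 were higher in the sarcomatoid tumors in both version 2 and version 3, beside 27.5% of all probes, and nothing is read from this count since the same values chose the members. The median difference was 0.71 in version 2, where 307 and 594 faced 105 and 470, and 1.13 in version 3, where the 2 lung tumors faced 131, 17 and 85. The difference was larger in version 3 for 84 members, against 50.3% of all probes. For Ncf4 the values were 1.08 and 3.17, and for Medag 1.43 and 3.30. Version 2 held 470 and 105, the adenocarcinomas with the highest member medians, and version 3 held all lung tumors, so version, tumor and site cannot be told apart in this contrast. For Ccr2 the order was the reverse, with 1.99 and 1.18.

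**Figure D4:**
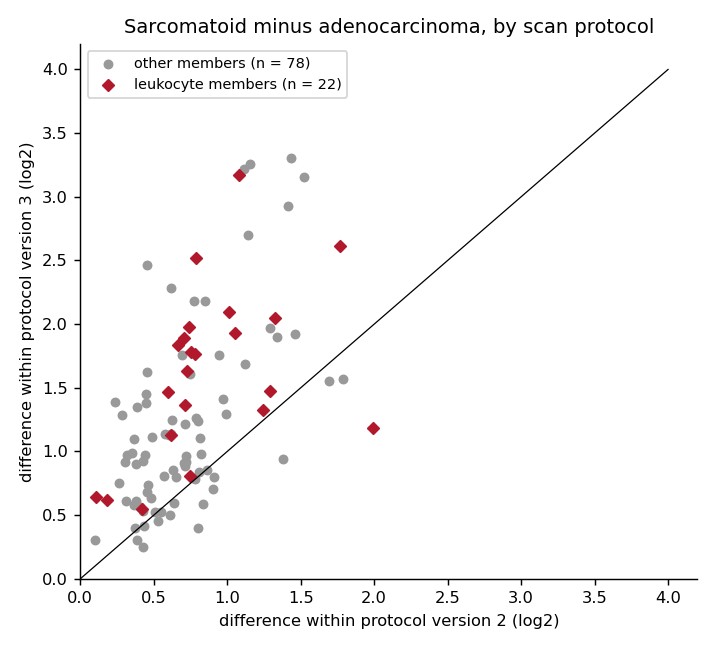
Sarcomatoid minus adenocarcinoma difference (log2) of the 100 members within protocol version 2 (horizontal axis, 2 against 2 arrays) and version 3 (vertical axis, 2 against 3 arrays). The line marks equal values, and 84 members lie above it.

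The site of the tumor was not used to choose the members. The rule still asked all lung and all mammary sarcomatoid values to be high, which may limit differences between the sites. Lung and mammary sarcomatoid tumors were compared with limma over all 41174 probes, two-sided. The median difference of the members, lung minus mammary, was 0.01, against -0.00 over all probes. At an unadjusted p under 0.05, 4 members were higher in the lung, where 3.76% of all probes were, and 1 was lower, where 3.28% were. With single tumors left out the 5 members became 4 to 10, with 9 without the 323 lung tumor, 8 without 307 and 10 without the 307 lung tumor. After Benjamini-Hochberg adjustment over all probes no member passed, and 2 probes in all did, or 0.00486%. The share of members was thus near the background, which the rule may in part have set.

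Plac1 had the smallest p. It was -0.26 in 323, -0.83 in 307 and -0.33 in 594, and 0.85 and 0.78 in the lung tumors 323 and 307. Both lung tumors were higher than all mammary tumors, by 1.28 ± 0.20 (SE), with a limma p of 0.000161 and an adjusted p of 0.281. Dusp9, a phosphatase of MAP kinases, was -0.25, -0.18 and -0.16 in the mammary and 0.36 and 0.50 in the lung tumors, with an adjusted p of 0.281 by limma. Its unadjusted limma p was 0.000207 in that fit, 0.00333 on the sarcomatoid tumors alone and 0.0227 with the block. Eya4, a transcriptional coactivator and phosphatase, was higher in the lung by 0.57 (limma adjusted p = 0.395) and 9930012K11Rik by 0.73 (limma adjusted p = 0.561).

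Aurkaip1 was 1.29, 1.02 and 1.07 in the mammary tumors 323, 307 and 594 and 0.70 and 0.67 in the lung tumors, a difference of -0.44 with a limma adjusted p of 0.671. Next in order among those lower in the lung were Ccr2 at -1.25 and Fam171b at -0.80, neither past the unadjusted threshold in this fit. Fam171b passed that threshold with tumor number as a block and on the 5 sarcomatoid tumors alone, at -0.80 in both. Ccr2 passed it on the deposited table, at -2.12, and at an offset of 16, at -1.75, but not with the block, at -0.74. In the adenocarcinomas Plac1 ranged from -1.1 to -0.58, Dusp9 from -0.63 to -0.44 and Eya4 from -0.77 to -0.45. The mammary tumor 307 fell within that range for Plac1 and for Eya4, at -0.54, so the 2 genes overlapped there. The member probe of Dusp9 did not overlap in any tumor. A brighter Dusp9 probe, above background on all arrays, differed by 1.21 between the groups but overlapped, with a gap of -0.78. The 2 other Eya4 probes, both brighter, also overlapped, with gaps of -0.25 and -0.40.

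With tumor number as a block, which compares each lung tumor with the mammary tumor of its number and takes nothing from 594, 7 members were higher in the lung and 1 lower, beside 6.16% and 6.3% of all probes. In the fit on the 5 sarcomatoid tumors alone the counts were 6 and 2, beside 5.07% and 5.31%. Plac1, Dusp9, Eya4, 9930012K11Rik, Ncf4 and Emp3 were higher in the lung in both of these fits. Ncf4 and Emp3 differed by 0.99 and 1.27 with the block and by 0.77 and 0.97 on the sarcomatoid tumors alone. With protocol version as a term, 14 members were higher and none lower, beside 3.25% and 2.58% of all probes. Among those added to the calls of the 3-group fit were Ncf4, Medag, Csf1r, Cx3cr1, Emp3, Jam3, Cst3, Znhit6 and ENSMUST00000080906. The members' median difference with that term was 0.50 against 0.00 over all probes. No lung tumor shares a protocol version with a mammary sarcomatoid tumor. The fit with protocol version therefore compares the sites through the adenocarcinomas of each version, of which version 2 holds 470. The rule used the contrast with the adenocarcinomas to choose the members, so their count and median in that fit are not free of the choice. The smallest adjusted p of any member was 0.670 in that limma fit, 0.268 with the block and 0.217 on the 5 tumors alone.

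**Figure D5:**
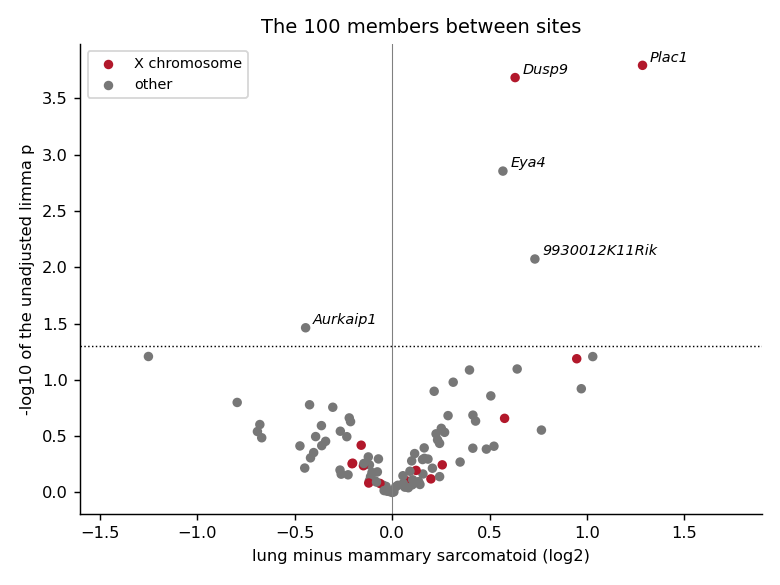
Lung minus mammary sarcomatoid difference (horizontal axis, log2) and -log10 of the unadjusted limma p (vertical axis) of the 100 members, X-linked members in dark red. The dotted line marks the unadjusted threshold, and Plac1, Dusp9, Eya4, 9930012K11Rik and Aurkaip1 lie above it.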

How the data were processed

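RNA of 10 tumors was measured on 2-colour Agilent mouse arrays, 1 array per tumor. The authors deposited scanner files with the median spot intensity, local background and a log10 ratio per spot, and a normalized log2 table of 42515 rows. Their notes name limma, with no version or steps given in the sources used here. The deposited log2 table was used to choose the members and as an alternative. The intensities were corrected with normexp (offset 50), control spots were left out, ratios were normalized by loess, spots the scanner marked as outliers (0.228% to 0.576% per array) were dropped, and repeated spots were averaged by probe, in limma 3.58.1 and R 4.3.3. All 41174 probes were fitted. Between 52.2% and 83.0% of probes were above background in red, and the number of tumors limits the precision.

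Probes were named through RefSeq accession, symbol or synonym, which matched 93 of the 100 members. The members and gene lists were chosen with earlier results of these data known. Named were the 3 markers, the 20 largest gaps, the genes beside the threshold, the extremes by site and by SD, members on a list, disagreeing probes and neighbours, and others after their values were seen. Lists were read through the brightest probe of each gene. The site fit used 3 groups (lung sarcomatoid, mammary sarcomatoid, adenocarcinoma) and was tested on simulated data. The simulated arrays were independent, so that test does not cover shared tumor origins, protocol versions or dim probes. P-values measure the spread between these tumors. Tumor numbers pair lung and mammary tumors because the lung tumors grew from cell lines of the mammary ones. The paired deviations correlated across probes at 0.22 for 323 and 0.02 for 307.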

Additional observations from a re-analysis of the deposited data

Results flagged for a closer look

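Among the named genes and the member median, checked in both groups of 5 tumors, 2 values stood apart from the other 4 of their group by Dixon's criterion at the 95% level, of 71 groups checked, where chance alone gives about 1 in 20. Ptchd4, a patched-domain membrane protein, was -0.33 in the mammary tumor 323, with the next sarcomatoid tumor at -1.71. Its lung partner was at -2.06. Radx was -1.32 in adenocarcinoma 131, below the next lowest at -0.92, and its probe was well above background on 3 of the 5 adenocarcinoma arrays.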

How the results depend on the processing

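The members without overlap were 63 to 95 of 100 under the other normalizations, with the mammary tumors alone or with 1 value per tumor number. With each tumor left out in turn they were 86 to 94. Among these settings the share of all probes is given only without adenocarcinoma 470, at 2.98%, against 0.661% with every tumor. Fewer arrays make a lack of overlap easier for any probe, so these counts alone do not show how stable the members are. The members' median difference between sarcomatoid and adenocarcinoma tumors was 1.32 in the deposited table, 0.71 within protocol version 2 and 1.13 within version 3. It was 0.89 to 1.07 with single tumors left out. Of the 100 genes, 75 stayed in the top 100 under the same rule on the renormalized ratios, 72 on the scanner's own ratio, 64 with a background filter on all 10 arrays and 58 when ranked by the difference of means. Emx2 left the set under the filter on all arrays and Mrpl33 under the ranking by means.

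Members that differed between lung and mammary tumors numbered 5, and 4 to 10 with single tumors left out (9 without the 323 lung tumor, 8 without 307, 10 without the 307 lung tumor). There were 8 with tumor number as replicate block, 8 on the sarcomatoid tumors alone, 14 with protocol version as a term and 0 at an adjusted p under 0.05. The members' median difference between sites was -0.10 to 0.07 with single tumors left out and 0.50 with protocol version as a term. The cause was not tested. Plac1, Dusp9 and Eya4 kept their direction and their side of the threshold in every alternative that tested them, while Aurkaip1 lost the unadjusted call in 9. Precision is limited by 2 lung tumors, 3 origins and dim probes: 37 members were above background on only some of the adenocarcinoma arrays.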
